A study of Mus musculus with 15 samples.

Results

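The transcripts of 38 target genes of the transcription factor p53 were followed in mouse embryonic stem (ES) cells with the hairpin sh4 or its control shCTR. A short hairpin RNA is processed into a small RNA that silences a matching transcript. The genes were taken from a list of p53 targets that also holds Trp53 itself, which encodes p53. Each was found by its gene name on the array, and the brightest probe of a gene stood for it. All 38 were present among 31829 gene names, and all 38 were among the 25087 genes that passed the filter on dim probes and were tested.

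p53 is a transcription factor that is kept low by the ubiquitin ligase Mdm2 and accumulates after DNA damage and other stress. It binds DNA as a tetramer at a pair of decameric half-sites and switches on genes for cell cycle arrest, apoptosis, DNA repair and metabolic control, Mdm2 among them, which closes a negative feedback loop. In mouse ES cells p53 is also known to act on the balance between self-renewal and differentiation.

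The 15 arrays fell into 4 groups of transfected ES cells: untreated shCTR (4 arrays), untreated sh4 (4 arrays), shCTR after 72 hours with 1 µM retinoic acid (4 arrays) and sh4 after the same treatment (3 arrays). Retinoic acid, a vitamin A derivative, drives ES cells to differentiate. The labels name no target for sh4, no cell line and no time in culture for the untreated cells, so retinoic acid and the 72 hours of its treatment cannot be told apart. The series title names Phf19, a subunit of Polycomb repressive complex 2. Knockdown rests on 1 hairpin. The samples are titled biological replicates and nothing says that they were separate cultures, so each p-value reflects spread among these arrays alone, which may be technical, and the number of arrays limits the precision.

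Levels are log2 signals minus the 75th percentile of the same array, so that 0 is that percentile. They are given in the order of the replicate numbers, which are 1 to 4 in 3 groups and 1, 3 and 4 in sh4 with retinoic acid. Changes are log2 fold changes with the standard error of the limma fit, and a gene is said to have risen or fallen where its Benjamini-Hochberg adjusted p over all genes tested was under 0.05. Phf19 stood at −0.94, −0.99, −0.72 and −0.71 in untreated shCTR and at −2.63, −2.55, −2.53 and −2.56 in untreated sh4. With retinoic acid it stood at −3.03, −3.08, −3.07 and −2.82 in shCTR and at −3.91, −3.99 and −3.73 in sh4. The hairpin groups did not overlap in either treatment, and Phf19 fell by 1.73 ± 0.09 untreated (limma adjusted p = 7.1e-09) and by 0.88 ± 0.09 with retinoic acid (adjusted p = 1.8e-05). All 10 ES cell markers examined were well above background on every array. No spot was saturated on any array. The share of probes well above background ranged from 74.4% to 80.0%. The extraction software asked for an evaluation of 3 arrays (untreated shCTR replicate 2, untreated sh4 replicate 3 and sh4 with retinoic acid replicate 1), and they were kept.

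Promoter windows of 300 bases, from 250 before to 50 after a transcription start, were available from RefSeq (GRCm38.p6) for 30 of the 38 genes, in 39 windows. The windows were searched for the p53 consensus element, known by name as the p53 response element: a pair of 10-base half-sites 0 to 13 bases apart, with at most 2 mismatches in 20 bases and the C and G of each core kept. The half-site reads the same on both strands. Of the 30 genes, 7 (23.3%) held such an element, against 4.71% of all 27025 genes with a window. By window, the shares were 17.9% of 39 and 4.09% of 32851. An exact half-site lay in the windows of 11 genes (36.7%), against 9.55% of all genes. The genes were listed as p53 targets, so these shares describe the list and are not a test of it. A match describes letters in a window and is not a measured binding site. The stretches around the 7 elements, and around the half-sites of Mdm2 and Trp53, are shown so that the matched letters can be read beside the levels of the same genes. Each is written 5′ to 3′ on the strand of the gene, with the half-sites in capitals.
Bax (chr7:45467054-45467124, minus strand): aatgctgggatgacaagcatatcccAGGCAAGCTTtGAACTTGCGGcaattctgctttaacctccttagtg
Ccng1 (chr11:40755437-40755506, minus strand): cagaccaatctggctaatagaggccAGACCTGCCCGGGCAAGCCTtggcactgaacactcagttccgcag
Ckap2 (chr8:22185978-22186047, minus strand): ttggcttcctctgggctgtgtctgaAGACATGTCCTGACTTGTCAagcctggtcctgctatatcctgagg
Gadd45a (chr6:67037413-67037488, minus strand): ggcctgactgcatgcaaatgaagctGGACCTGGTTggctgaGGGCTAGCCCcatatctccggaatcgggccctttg
Pml (chr9:58249896-58249972, minus strand): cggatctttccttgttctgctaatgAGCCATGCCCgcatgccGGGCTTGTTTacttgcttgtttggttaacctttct
Sesn1 (chr10:41887228-41887300, plus strand): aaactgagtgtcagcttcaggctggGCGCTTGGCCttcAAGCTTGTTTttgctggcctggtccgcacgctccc
Trp73 (chr4:154097195-154097264, minus strand): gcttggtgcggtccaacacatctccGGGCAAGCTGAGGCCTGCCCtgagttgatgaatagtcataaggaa
Mdm2 (chr10:117710910-117710969, minus strand): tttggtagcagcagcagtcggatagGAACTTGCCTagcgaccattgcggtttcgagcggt
Trp53 (chr11:69580259-69580318, plus strand): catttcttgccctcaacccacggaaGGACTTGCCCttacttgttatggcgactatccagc

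Ccng1 and Pml differed from the consensus at 1 base each and the other 5 full elements at 2 bases. The half-sites were adjacent in Ccng1, Ckap2 and Trp73, with 1 base between them in Bax, 3 in Sesn1, 6 in Gadd45a and 7 in Pml. Exact half-sites without a full element lay in the windows of Aen, Ei24, Mdm2, Polk and Trp53. Calls in this paragraph are by the brightest probe of a gene unless stated. Of the 7 genes with a full element, Ccng1, Gadd45a and Pml rose with sh4 in untreated cells, Sesn1 fell, and Bax, Ckap2 and Trp73 were not called. With the mean of a gene's probes, Pml was not called (0.06, limma adjusted p = 0.48) and Trp73 rose (0.52, adjusted p = 0.019). Over all genes tested, 14.3% rose and 14.2% fell there. With retinoic acid, Bax, Ccng1 and Ckap2 rose with sh4 and the others were not called, against 10.9% of all genes that rose and 10.3% that fell. Tnfrsf10b, Pmaip1, Perp, Trp53inp1, Rrm2b, Ddb2, Xpc and Zmat3 had no window in the table.

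**Figure D1:**
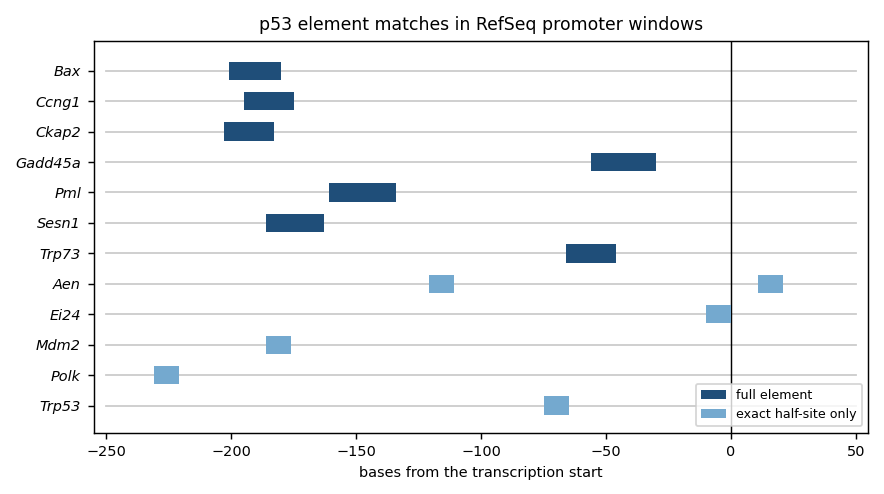
Position of p53 element matches in RefSeq promoter windows of 12 of the genes, in bases from the transcription start (vertical line at 0). Dark bars are full elements of 2 half-sites, light bars exact half-sites in windows without a full element, and grey lines the windows; 5 of the 7 full elements lie more than 130 bases before the start.

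In untreated cells, most p53 target genes were higher with sh4 than with shCTR. The largest increases were in Sfn, a 14-3-3 protein that holds cells before mitosis (2.37 ± 0.08, 5.16-fold), Perp, a membrane protein of desmosomes and of p53-dependent apoptosis (1.70 ± 0.07, 3.24-fold), and Btg2, an antiproliferative cofactor of mRNA deadenylation (1.04 ± 0.06, 2.06-fold). In all, 25 of the 38 genes rose, 3 fell (Gdf15, Dram1 and Sesn1) and 10 were not called. Over all genes tested, 14.3% rose and 14.2% fell, or 28.5% in either direction. The median change was 0.40 for the 38 genes and 0.02 for all genes tested. No array of sh4 overlapped the shCTR arrays in 23 genes that were higher and 2 that were lower, against 14.1% and 14.2% of all genes (28.3% in either direction). Most changes were small: 3 of the 25 increases exceeded 2-fold. In bulk RNA, fewer cells of a type and less RNA per cell cannot be told apart.

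Within each of the 4 slides the sign of the difference was that of the fit for all 28 called genes. The within-slide differences use the arrays that gave the calls. Genes whose groups do not overlap keep their sign in every slide in any case. With slide as a block 26 rose and 3 fell, against 4567 and 4463 of all genes tested (3587 and 3557 without it). Some calls lay near the threshold and were lost when 1 of several arrays was left out. Zmat3 (0.39) lost its call without untreated sh4 replicate 1 or 2 (0.32 and 0.33) or shCTR replicate 3 or 4 (0.36 each), at adjusted p = 0.062 to 0.071. Eda2r (0.48) lost it without sh4 replicate 3 or 4 or shCTR replicate 1, at changes of 0.41 to 0.42 (adjusted p = 0.052 to 0.053). Sesn2 (0.20) lost it without any 1 of 11 arrays, all but untreated sh4 replicate 1, shCTR replicates 2 and 3 and sh4 with retinoic acid replicate 4 (adjusted p = 0.053 to 0.12). With normexp background correction, 19 genes rose and 2 fell, against 2052 and 2571 of all genes tested. Aen, Dram1, Eda2r, Fas, Plk3, Sesn2 and Slc19a2 then lost their calls, and Fas, Eda2r and Dram1 moved to 0.21, 0.02 and −0.31. With the authors' deposited table they were not called either, at 0.33, 0.16 and −0.18.

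With retinoic acid, the p53 target genes were again mostly higher in sh4. Perp led (1.38 ± 0.08, 2.6-fold), followed by Btg2 (0.84 ± 0.06), Rrm2b (0.75 ± 0.24), Ccng1 (0.73 ± 0.13) and Plk2 (0.73 ± 0.12), and Dram1, Epha2 and Bcl2l1 fell. Of the 38 genes, 21 rose, 3 fell and 14 were not called, against 10.9% of all genes that rose and 10.3% that fell (21.2% in either direction). The median change was 0.28, against 0.04 for all genes tested. Arrays did not overlap in 21 genes that were higher and 3 that were lower, against 17.8% and 14.5% of all genes (32.3% in either direction). Only Perp rose by more than 2-fold, whereas Dram1 and Epha2 fell by more than 2-fold.

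The 24 called genes kept the sign of the fit within each of the 3 slides that hold both groups. As above, genes whose groups do not overlap must do so. With slide as a block 22 rose and 3 fell, against 3723 and 3305 of all genes tested (2722 and 2585 without it). Pmaip1 (0.24, adjusted p = 0.078), Polk (0.24) and Rrm2b (0.42) were not called with normexp correction, nor was Polk with the mean of its probes (0.09, adjusted p = 0.47). Rrm2b lost its call without sh4 with retinoic acid replicate 1 or 3 (0.73 and 0.58), shCTR with retinoic acid replicate 1, 3 or 4 (0.81, 0.65 and 0.65), or 3 of the untreated arrays (sh4 replicate 2, shCTR replicates 1 and 3, 0.75 each), at adjusted p = 0.054 to 0.17. Polk lost it without any 1 of 9 arrays (adjusted p = 0.051 to 0.17; untreated sh4 replicates 1 and 3, untreated shCTR replicates 3 and 4, sh4 with retinoic acid replicates 3 and 4, and shCTR with retinoic acid replicates 1, 2 and 4), at changes of 0.18 to 0.24. Sesn2 lost it without sh4 with retinoic acid replicate 1 or 4 or shCTR with retinoic acid replicate 1, 3 or 4 (0.22 to 0.28, adjusted p = 0.050 to 0.11). Ercc5 lost it without sh4 with retinoic acid replicate 1 or 3 or shCTR with retinoic acid replicate 1 or 3 (0.23 to 0.30, adjusted p = 0.057 to 0.13), and Bcl2l1 without sh4 with retinoic acid replicate 3 or 4 (−0.51 and −0.49, adjusted p = 0.050 and 0.055). In the other direction, Ei24 passed without sh4 with retinoic acid replicate 4 (0.31) or untreated shCTR replicate 4 (0.24), Gadd45a without sh4 with retinoic acid replicate 4 (0.33) and Plk3 without its replicate 1 (−0.38).

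The 2 hairpin comparisons share no array, but 1 model gave both a common estimate of spread, and their groups share slides. In both, 18 of the 38 genes rose, against 4.61% of all genes tested, and 1 (Dram1) fell, against 4.60%. A further 6 genes rose in untreated cells and were not called with retinoic acid (Pml, Gadd45a, Plk3, Fas, Eda2r and Apaf1), and for 3 it was the reverse (Ckap2, Bax and Rrm2b). Gdf15 and Sesn1 fell in untreated cells and were not called with retinoic acid, and Bcl2l1 fell with retinoic acid and was not called in untreated cells. Epha2 rose in untreated cells and fell with retinoic acid. Neither comparison called Trp53, Trp73, Ei24, Ddb2, Xpc or Ephx1.

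**Figure D2:**
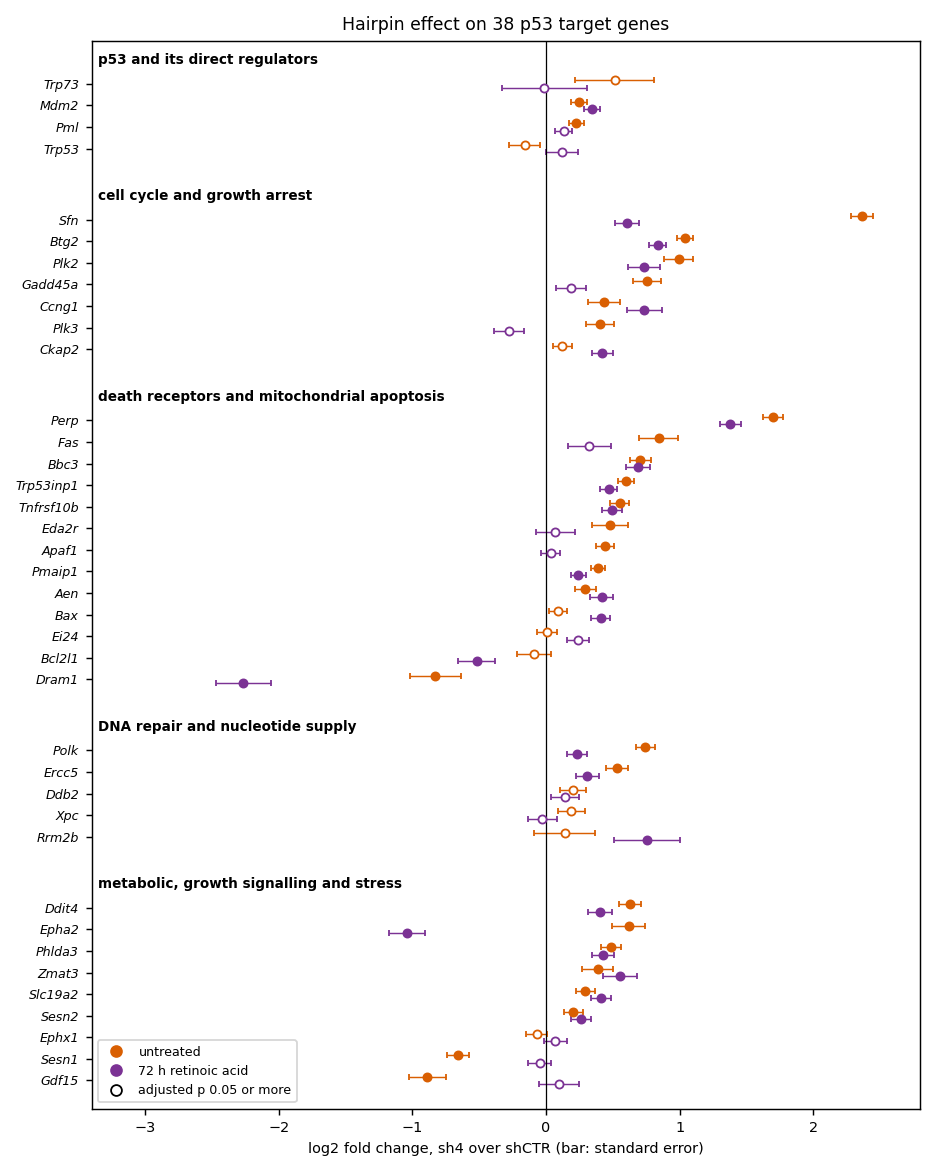
Log2 fold change of sh4 over shCTR for the 38 genes, by role, in untreated cells (orange) and after 72 hours of retinoic acid (purple). Bars are standard errors of the limma fit and open circles are genes at an adjusted p of 0.05 or more; most points lie to the right of 0 in both treatments, and Epha2 lies on opposite sides.

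Markers of other cell types moved between the same groups. For comparison, 14.3% of all genes tested rose and 14.2% fell with sh4 untreated, and 10.9% and 10.3% with retinoic acid. The summed level of 8 simple epithelium markers (as a multiple of the 75th percentile) was 13.8 to 15.05 in untreated shCTR and 92.7 to 103 in untreated sh4, where all 8 markers rose, with Krt18 and Krt8 leading (3.91 and 3.69). With retinoic acid those sums overlapped, at 317 to 343 in shCTR and 302 to 358 in sh4, and 4 of the 8 markers rose. The 8 trophectoderm markers summed to 3.49 to 3.97 in untreated shCTR and 5.07 to 6.42 in untreated sh4, and to 5.94 to 6.60 and 7.67 to 8.66 with retinoic acid. Untreated, 6 of these 8 rose and none fell (median change 1.28). With retinoic acid 2 rose and 4 fell (median −0.16), and 4 of the 8 changes were above 0, although the summed level was higher in sh4. The 10 primitive and visceral endoderm markers were lower in sh4, at 0.413 to 0.441 against 1.25 to 1.42 untreated and 12.5 to 12.9 against 49.8 to 58.5 with retinoic acid. Of these markers 8 fell untreated and 10 with retinoic acid, and none rose. The 10 ES cell markers summed to 337 to 415 in untreated shCTR and 318 to 355 in untreated sh4, and to 98.5 to 106.9 and 55.7 to 66.5 with retinoic acid. None of the ES cell markers rose and 2 fell untreated (median −0.24), and 2 rose and 6 fell with retinoic acid (median −0.77). The 10 fibroblast markers summed to 3.88 to 4.19 in untreated shCTR and 2.81 to 2.97 in untreated sh4, and to 18.5 to 24.7 and 26.4 to 28.1 with retinoic acid. Untreated, 4 of these 10 rose, each by more than 2-fold, and 3 fell (median 0.12, against the direction of the sum). With retinoic acid 2 of the fibroblast markers rose and 1 fell (median 0.13). Col3a1, Dcn, Lum and Postn were well above background on no untreated shCTR array, so the size of any untreated change in them is uncertain. At least 6 of 10 fibroblast, 8 of 10 endoderm and 7 of 8 trophectoderm markers were well above background on every array, as were all of the epithelium and ES cell markers. The part of these cell types in the changes of the p53 targets was not tested.

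Trp53 was not called in either hairpin comparison, and Mdm2 rose in both. Trp53 stood at −0.45, −0.28, −0.10 and −0.04 in untreated shCTR, at −0.49, −0.53, −0.31 and −0.18 in untreated sh4, at −1.83, −1.59, −1.54 and −1.58 in shCTR with retinoic acid and at −1.48, −1.70 and −1.38 in sh4 with retinoic acid. The hairpin groups overlapped in both treatments, at −0.16 ± 0.11 (limma adjusted p = 0.37) and 0.12 ± 0.12 (adjusted p = 0.62), whereas every array with retinoic acid lay below every untreated one. Mdm2 stood at 4.22, 4.18, 4.17 and 4.30 in untreated shCTR, at 4.47, 4.52, 4.38 and 4.49 in untreated sh4, at 4.39, 4.51, 4.47 and 4.43 in shCTR with retinoic acid and at 4.86, 4.82 and 4.69 in sh4 with retinoic acid. Its sh4 arrays lay above the shCTR arrays in both treatments, and Mdm2 rose by 0.24 ± 0.06 (adjusted p = 0.0058) and 0.34 ± 0.06 (adjusted p = 0.0014), which is 1.18-fold and 1.27-fold. Pml, which organises nuclear bodies, stood at 2.84, 3.01, 2.95 and 2.84 in untreated shCTR, at 3.20, 3.08, 3.18 and 3.07 in untreated sh4, at 0.95, 1.00, 0.93 and 0.95 in shCTR with retinoic acid and at 1.10, 1.10 and 1.06 in sh4 with retinoic acid. Its sh4 arrays lay just above the shCTR arrays of the same treatment, and all arrays with retinoic acid lay far below the untreated ones. Pml rose by 0.22 ± 0.06 in untreated cells (adjusted p = 0.0082), but its second probe gave −0.11. Pml was not called with the mean of its probes (0.06, adjusted p = 0.48) or with only the groups compared (0.22, adjusted p = 0.061). Trp73, which encodes the p53 relative p73, was not called by its brightest probe in either treatment (0.51 ± 0.30 and −0.01 ± 0.32). A second Trp73 probe rose by 0.47 untreated (adjusted p = 0.0062) and fell by 0.61 with retinoic acid (adjusted p = 0.0026), so the probes gave different calls. With the mean of its probes Trp73 rose untreated (0.52, adjusted p = 0.019).

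The arrest genes held 3 of the 4 largest increases in untreated cells, and 6 of the 7 rose there, against 14.3% of all genes. Sfn stood at −2.27, −2.16, −2.22 and −2.21 in untreated shCTR and at −0.0046, 0.08, 0.32 and 0.21 in untreated sh4, and with retinoic acid at −1.43, −1.44, −1.31 and −1.49 in shCTR and at −0.66, −0.83 and −0.95 in sh4. The groups did not overlap in any of these pairings: untreated sh4 was highest, sh4 with retinoic acid next, then shCTR with retinoic acid, then untreated shCTR. Sfn rose by 2.37 ± 0.08 in untreated cells (limma adjusted p = 3.2e-10) and by 0.61 ± 0.09 with retinoic acid (adjusted p = 2.6e-04).

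Btg2 stood at −1.21, −1.15, −1.22 and −1.25 in untreated shCTR, at −0.26, −0.23, −0.03 and −0.15 in untreated sh4, at −0.04, −0.02, −0.06 and 0.01 in shCTR with retinoic acid and at 0.90, 0.78 and 0.76 in sh4 with retinoic acid. Its sh4 arrays were higher than the shCTR arrays in both treatments, by 1.04 ± 0.06 (limma adjusted p = 2.5e-08) and 0.84 ± 0.06 (adjusted p = 1.2e-06). Plk2, a polo-like kinase, stood at −0.93, −0.67, −0.87 and −0.90 in untreated shCTR, at 0.10, 0.24, 0.13 and 0.12 in untreated sh4, at 0.91, 1.05, 0.79 and 0.60 in shCTR with retinoic acid and at 1.81, 1.56 and 1.34 in sh4 with retinoic acid. It too was higher on every sh4 array of a treatment, by 0.99 ± 0.11 (adjusted p = 1.2e-05) and 0.73 ± 0.12 (adjusted p = 6.2e-04). Ccng1, which encodes cyclin G1, stood at 1.85, 1.57, 1.58 and 1.39 in untreated shCTR, at 2.12, 2.07, 2.10 and 1.84 in untreated sh4, at 2.70, 2.71, 2.32 and 2.31 in shCTR with retinoic acid and at 3.34, 3.18 and 3.21 in sh4 with retinoic acid. The untreated hairpin groups overlapped in 1 shCTR array and the treated ones did not overlap, with increases of 0.44 ± 0.12 (adjusted p = 0.014) and 0.73 ± 0.13 (adjusted p = 0.0011). The untreated call of Ccng1 was lost without the 3 arrays rated for evaluation (0.41, adjusted p = 0.087), an alternative chosen after seeing the data.

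Gadd45a, a growth arrest and DNA damage protein, rose by 0.75 ± 0.10 in untreated cells and stood at 0.19 ± 0.11 with retinoic acid (limma adjusted p = 0.3). Plk3, another polo-like kinase, stood at 1.58, 1.53, 1.59 and 1.62 in untreated shCTR, at 1.90, 2.09, 1.94 and 2.01 in untreated sh4, at 1.46, 1.53, 1.35 and 1.46 in shCTR with retinoic acid and at 1.38, 0.81 and 1.33 in sh4 with retinoic acid. Its untreated groups did not overlap (0.40 ± 0.10), while 1 treated sh4 array lay far below the others and 1 lay among the shCTR arrays (−0.28 ± 0.11, adjusted p = 0.11). Ckap2, a protein of the mitotic spindle, rose by 0.42 ± 0.08 with retinoic acid and stood at 0.12 ± 0.07 untreated (adjusted p = 0.27). With retinoic acid 5 of the 7 arrest genes rose, against 10.9% of all genes, and none fell.

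Of the 13 genes of death receptors and apoptosis, 9 rose and 1 fell in untreated cells, and 7 rose and 2 fell with retinoic acid. The shares of all genes were 14.3% and 14.2% untreated and 10.9% and 10.3% with retinoic acid. Perp stood at 0.34, 0.50, 0.55 and 0.46 in untreated shCTR, at 2.07, 2.05, 2.28 and 2.25 in untreated sh4, at 2.19, 2.06, 2.15 and 2.13 in shCTR with retinoic acid and at 3.55, 3.39 and 3.58 in sh4 with retinoic acid. Every sh4 array lay more than 1 log2 unit above every shCTR array of its treatment, and untreated sh4 overlapped shCTR with retinoic acid. The limma adjusted p of Perp was 2.0e-09 untreated and 8.0e-08 with retinoic acid. Bbc3, which encodes the BH3-only protein Puma, stood at 2.38, 2.39, 2.61 and 2.53 in untreated shCTR, at 3.20, 3.02, 3.34 and 3.16 in untreated sh4, at 1.97, 1.96, 2.06 and 2.17 in shCTR with retinoic acid and at 2.78, 2.68 and 2.73 in sh4 with retinoic acid. It was higher on all sh4 arrays of a treatment, by 0.70 ± 0.08 untreated (adjusted p = 1.5e-05) and 0.69 ± 0.09 with retinoic acid (adjusted p = 7.9e-05), and the difference between the 2 effects was −0.02 ± 0.12 (adjusted p = 0.96).

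Fas, a death receptor, stood at −5.92, −5.41, −5.59 and −5.70 in untreated shCTR, at −5.15, −4.70, −4.58 and −4.83 in untreated sh4, at −2.16, −2.18, −2.01 and −2.10 in shCTR with retinoic acid and at −1.58, −1.67 and −2.12 in sh4 with retinoic acid. The untreated groups did not overlap (0.84 ± 0.15, limma adjusted p = 6.0e-04), whereas 1 treated sh4 array lay among the shCTR arrays (0.32 ± 0.16, adjusted p = 0.19). Dram1, a lysosomal membrane protein of autophagy, stood at −6.75, −6.31, −5.95 and −6.08 in untreated shCTR, at −7.08, −7.38, −7.22 and −6.72 in untreated sh4, at −1.90, −2.34, −1.92 and −1.77 in shCTR with retinoic acid and at −4.29, −4.43 and −4.02 in sh4 with retinoic acid. The untreated groups overlapped, and untreated sh4 was well above background on 2 of 4 arrays only, while the treated groups stood far apart. Dram1 fell by 0.83 ± 0.19 untreated (adjusted p = 0.0047) and by 2.26 ± 0.21 with retinoic acid (adjusted p = 4.4e-06), which is 4.8-fold.

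Among the other apoptosis genes, 4 rose in both treatments by less than 2-fold. The death receptor gene Tnfrsf10b rose by 0.55 and 0.49, Pmaip1, which encodes the BH3-only protein Noxa, by 0.39 and 0.24, the exonuclease gene Aen by 0.29 and 0.41, and the stress protein gene Trp53inp1 by 0.60 and 0.47. A second Trp53inp1 probe gave 0.83 and 0.17, the latter not called (limma adjusted p = 0.084). For that probe the difference between the 2 effects was −0.66 (adjusted p = 1.6e-04). Apaf1, the core of the apoptosome, rose by 0.44 ± 0.06 untreated and stood at 0.04 ± 0.07 with retinoic acid, and the receptor gene Eda2r rose by 0.48 ± 0.13 and stood at 0.07 ± 0.15. A second Eda2r probe gave 0.49 and 0.43, the latter not called (limma adjusted p = 0.084). Bax, a pore-forming protein of the mitochondrial membrane, rose by 0.41 ± 0.07 with retinoic acid and stood at 0.09 ± 0.07 untreated. Bcl2l1, whose main product protects from apoptosis, fell by 0.52 ± 0.14 with retinoic acid and stood at −0.09 ± 0.13 untreated. Ei24, a membrane protein of the endoplasmic reticulum, passed in neither (0.01 ± 0.08 and 0.24 ± 0.08), although with retinoic acid it was called with slide as a block (adjusted p = 0.0499) and with the authors' deposited table (0.27, adjusted p = 0.029).

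Of the 5 genes of DNA repair and nucleotide supply, 2 rose in untreated cells (14.3% of all genes) and 3 with retinoic acid (10.9% of all genes), and none fell. Polk, a translesion DNA polymerase, rose by 0.74 ± 0.07 and 0.23 ± 0.07, although its second probe gave 0.15 and −0.06, neither called. Ercc5, a nuclease of nucleotide excision repair, rose by 0.53 ± 0.08 and 0.31 ± 0.09. Rrm2b, a ribonucleotide reductase subunit, stood at −4.72, −4.51, −4.94 and −5.06 in untreated shCTR, at −4.24, −4.55, −4.93 and −4.96 in untreated sh4, at −4.76, −4.47, −5.26 and −5.26 in shCTR with retinoic acid and at −4.13, −3.84 and −4.58 in sh4 with retinoic acid. Its hairpin groups overlapped in both treatments, and it rose with retinoic acid (0.75 ± 0.24, limma adjusted p = 0.044) and stood at 0.14 ± 0.23 untreated (adjusted p = 0.77). The damage recognition genes Ddb2 (0.20 and 0.14) and Xpc (0.19 and −0.03) were not called, although with slide as a block Xpc rose untreated (adjusted p = 0.012).

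Among the 9 metabolic, growth signalling and stress genes, 6 rose and 2 fell untreated (14.3% and 14.2% of all genes), and 5 rose and 1 fell with retinoic acid (10.9% and 10.3%). Epha2, a receptor tyrosine kinase, stood at 2.89, 3.11, 3.1005 and 3.13 in untreated shCTR, at 3.27, 3.74, 3.93 and 3.76 in untreated sh4, at 1.82, 1.68, 1.91 and 1.92 in shCTR with retinoic acid and at 0.91, 0.63 and 0.85 in sh4 with retinoic acid. Its sh4 arrays were the higher ones in untreated cells (0.62 ± 0.13, limma adjusted p = 0.002) and the lower ones with retinoic acid (−1.04 ± 0.14, adjusted p = 1.0e-04), with no overlap in either. Gdf15, a secreted stress cytokine, stood at 0.45, 0.50, 0.42 and 0.28 in untreated shCTR, at −0.27, −0.37, −0.60 and −0.67 in untreated sh4, at −3.04, −3.03, −3.36 and −3.25 in shCTR with retinoic acid and at −3.48, −2.90 and −2.86 in sh4 with retinoic acid. Untreated sh4 lay below untreated shCTR throughout (−0.89 ± 0.14, adjusted p = 2.5e-04), and the treated groups overlapped (0.10 ± 0.15, adjusted p = 0.78).

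The 2 sestrin genes, whose products restrain mTORC1, differed. Sesn1 stood at 0.24, 0.08, 0.17 and 0.36 in untreated shCTR, at −0.41, −0.61, −0.41 and −0.34 in untreated sh4, at 0.67, 0.57, 0.75 and 0.79 in shCTR with retinoic acid and at 0.56, 0.61 and 0.77 in sh4 with retinoic acid. It was lower on every untreated sh4 array (−0.66 ± 0.08, limma adjusted p = 3.5e-05) and overlapped with retinoic acid (−0.05 ± 0.09, adjusted p = 0.81). Sesn2 rose slightly in both treatments (0.20 ± 0.07 and 0.26 ± 0.08). Ddit4, an mTORC1 inhibitor, rose by 0.63 and 0.40, the Akt inhibitor gene Phlda3 by 0.49 and 0.42, the RNA-binding protein gene Zmat3 by 0.39 and 0.55, and the thiamine transporter gene Slc19a2 by 0.29 and 0.41. Ephx1, an epoxide hydrolase, was called in neither (−0.07 and 0.07).

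**Figure D3:**
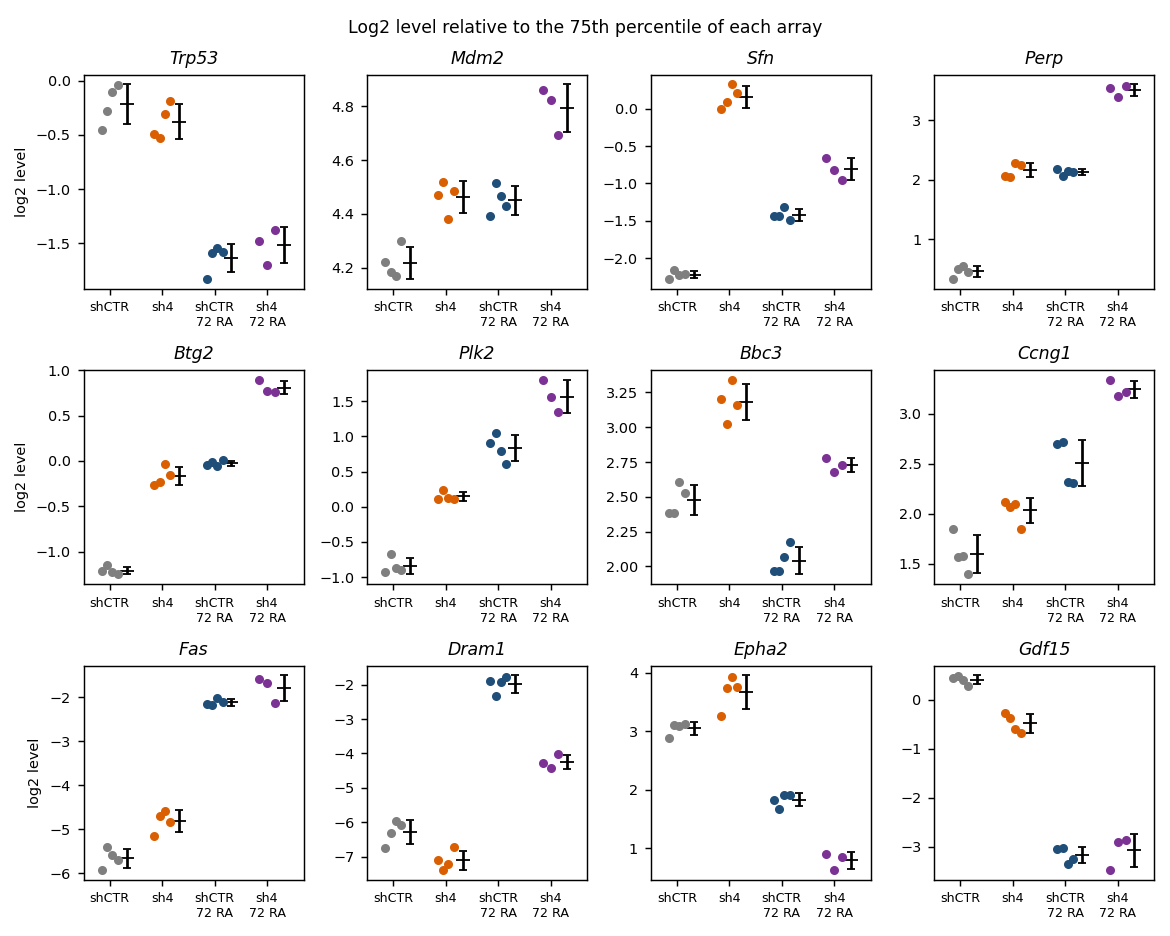
Log2 level relative to the 75th percentile of the array for 12 of the genes. Points are arrays (4 per group, 3 for sh4 with retinoic acid) and black bars are the mean ± SD; each panel has its own vertical scale. Perp, Btg2 and Plk2 are higher in sh4 in both treatments, while Epha2 is higher untreated and lower with retinoic acid.

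The array probes behind the leading values lie, on mm9, at chr4:133156842-133156901 for Sfn, chr10:18576697-18576756 for Perp, chr1:135972094-135972153 for Btg2 and chr13:111190915-111190974 for Plk2. Those of Dram1 and Epha2 lie at chr10:87786168-87786227 and chr4:140885139-140885198, and those of Trp53 and Mdm2 at chr11:69404204-69404263 and chr10:117126010-117126069. An mm9 annotation of exons was not used here.

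Retinoic acid moved the 38 genes in both directions. In shCTR, Dram1 (4.29 ± 0.19), Fas (3.54 ± 0.15), Plk2 (1.68 ± 0.11) and Perp (1.67 ± 0.07) rose most, and Gdf15 (−3.58 ± 0.14), Pml (−1.95 ± 0.06) and Trp53 (−1.42 ± 0.11) fell most. Dram1 and Fas were dim in untreated shCTR (mean −6.27 and −5.66), so the sizes of their responses are uncertain. Of the 38 genes, 18 rose, 12 fell and 8 were not called, against 28.9% and 33.5% of all genes (62.5% in either direction), and the median change was −0.05 against −0.12. Arrays did not overlap in 18 genes that were higher and 12 that were lower, against 27.9% and 32.1% of all genes (59.9% in either direction). Scaling to the median of detected probes gave 15 that rose and 15 that fell, against 6629 and 9416 of all genes. It shifted the median of all genes to −0.22. With normexp correction the median of all genes was −0.23, and 5297 of all genes rose and 9203 fell, against 7260 and 8410.

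In sh4, the response was led by Fas (3.02 ± 0.16), Dram1 (2.85 ± 0.21), Plk2 (1.42 ± 0.12), Perp (1.34 ± 0.08), Ccng1 (1.21 ± 0.13) and Sesn1 (1.09 ± 0.09) among genes that rose. Epha2 (−2.88 ± 0.14), Gdf15 (−2.60 ± 0.15), Pml (−2.04 ± 0.06) and Trp53 (−1.14 ± 0.12) led those that fell. Here 13 rose, 16 fell and 9 were not called, against 27.1% and 31.6% of all genes (58.6% in either direction), with a median of 0.07 against −0.12. Arrays did not overlap in 13 genes that were higher and 16 that were lower, against 26.9% and 30.9% of all genes (57.9% in either direction).

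The 2 responses share no array, but they too rest on 1 model and on shared slides. In both, 13 genes rose, against 23.3% of all genes tested, and 10 fell, against 26.7%. The arrest genes Btg2 (1.18 and 0.98), Plk2 and Ccng1 rose in both, as did Mdm2 (0.23 and 0.33), although with the median of detected probes as the scale Mdm2 was not called in shCTR (0.14, adjusted p = 0.056). Apoptosis genes that rose in both were Fas, Tnfrsf10b (0.77 and 0.71), Apaf1, Bcl2l1 (0.94 and 0.51), Perp and Dram1. Bax (−1.07 and −0.75), Bbc3 (−0.43 and −0.45), Ddb2 (−0.56 and −0.62), Gadd45a (−0.39 and −0.96) and Slc19a2 (−0.58 and −0.46) fell in both, as did Trp53, Pml, Gdf15 and Epha2 (in shCTR −1.22). Phlda3 (1.11 and 1.04), Ddit4 (0.68 and 0.45) and Sesn1 rose in both. Ephx1 fell by 1.00 and 0.86, although its second probe stood at −0.09 and −0.01. For Trp73, the brightest probe gave −0.42 and −0.94, and the others fell by 1.91 and 2.37 in shCTR and by 3.00 and 3.60 in sh4.

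Sfn and Polk rose with retinoic acid in shCTR (0.80 ± 0.08 and 0.18 ± 0.07) and fell in sh4 (−0.96 ± 0.09 and −0.33 ± 0.07). In sh4 Polk was not called with the mean of its probes (−0.10, adjusted p = 0.22), and its second probe stood at 0.12. Polk was not called in shCTR without shCTR replicate 2 or 3 (0.17 each) or shCTR with retinoic acid replicate 3 or 4 (0.16 and 0.18), at adjusted p = 0.065 to 0.090. Aen (−0.22 ± 0.08 in shCTR) lost its call without shCTR replicate 3 or 4 or shCTR with retinoic acid replicate 1 or 4 (−0.18 to −0.21, adjusted p = 0.058 to 0.078), and its sign turned with quantile normalization (0.10). Eda2r (0.61 ± 0.13 in shCTR) stood at −0.03 with normexp correction. In shCTR, Ckap2 fell without shCTR replicate 4 (−0.20) or sh4 with retinoic acid replicate 4 (−0.17), and Ei24 without shCTR replicate 4 (−0.20). In sh4, the brightest Trp73 probe was not called without sh4 with retinoic acid replicate 4 (−0.60, adjusted p = 0.13). Rrm2b was called in sh4 without sh4 replicate 1 (0.63) or sh4 with retinoic acid replicate 4 (0.69), and Zmat3 without sh4 replicate 3 (−0.33). Trp53inp1 (0.19 and 0.06), Ercc5 (0.31 and 0.09) and Eda2r (0.61 and 0.21) rose in shCTR and were not called in sh4, and Zmat3 (−0.40 and −0.23) and Aen fell in shCTR and were not called in sh4. The second Eda2r probe rose in both, by 0.60 and 0.54 (limma adjusted p = 0.0032 and 0.011). Xpc (−0.15 and −0.37), Plk3 (−0.13 and −0.81), Pmaip1 (−0.12 and −0.27) and the brightest Trp73 probe were called in sh4, where they fell, and not in shCTR. Ckap2 (−0.17 and 0.13), Ei24 (−0.15 and 0.08), Rrm2b (−0.13 and 0.49) and Sesn2 (0.02 and 0.08) were called in neither. In shCTR, Zmat3 lost its call with quantile normalization (−0.29, adjusted p = 0.051) and with the authors' deposited table (−0.28, adjusted p = 0.051). Trp53inp1 lost it with the median of detected probes as the scale (0.10, adjusted p = 0.22), with normexp correction (0.20, adjusted p = 0.066) and with the mean of its probes (0.04, adjusted p = 0.47). Polk was not called in shCTR with quantile normalization, the median of detected probes as the scale, normexp correction or the authors' deposited table (0.01 to 0.11). In sh4, Trp53inp1 was called as lower with the mean of its probes (−0.36) and as higher with quantile normalization (0.32, adjusted p = 0.002) and the authors' deposited table (0.29, adjusted p = 0.015). Sesn2 was called as higher in both responses with quantile normalization (0.23 and 0.29, adjusted p = 0.011 and 0.0047) and the authors' deposited table (0.19 and 0.40, adjusted p = 0.037 and 5.6e-04). With the authors' deposited table Slc19a2 was not called in sh4 (−0.18, adjusted p = 0.12). With slide as a block, 18 rose and 14 fell in shCTR, with Ckap2 and Xpc added (adjusted p = 0.013 and 0.017). With that block, 14 rose and 17 fell in sh4, with Rrm2b (0.39, adjusted p = 0.0085) and Zmat3 (−0.25, adjusted p = 0.0056) added. Of all genes tested, 7902 then rose and 9776 fell in shCTR, and 7366 and 9650 in sh4. Without the block these were 7260, 8410, 6788 and 7925. The called genes of both responses, 30 in shCTR and 29 in sh4, kept their sign within every slide. As with the hairpin effects, genes whose groups do not overlap must do so.

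**Figure D4:**
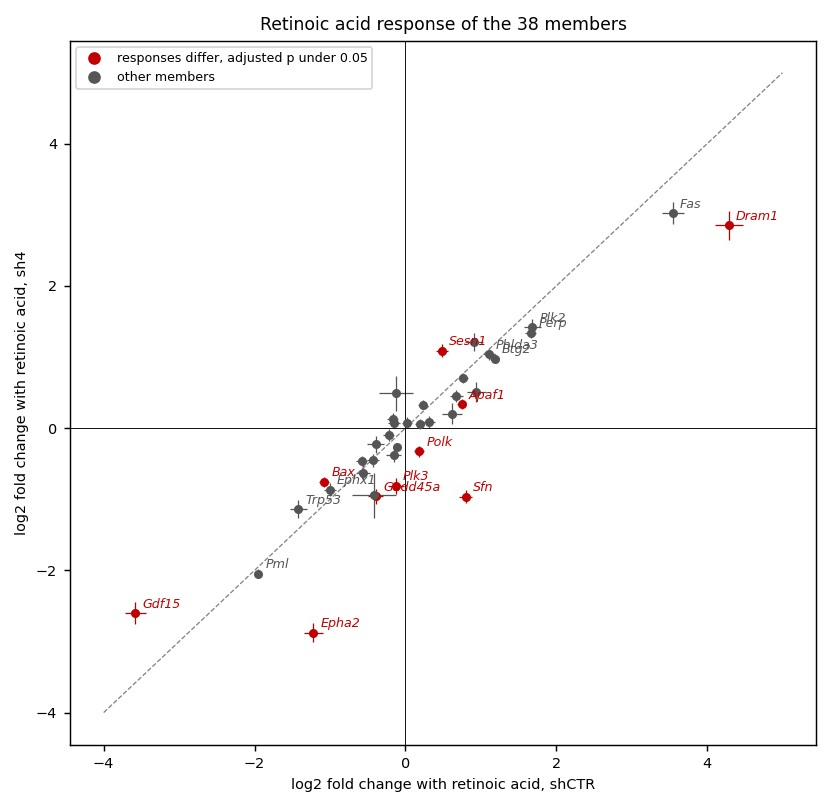
Log2 fold change with retinoic acid in shCTR (horizontal) against sh4 (vertical) for the 38 genes, with standard errors of the limma fit and a dashed line of equal response. Red marks the 10 genes whose responses differed at an adjusted p under 0.05; Sfn and Polk lie below the line with opposite signs, and Fas and Dram1 rose most in both hairpins.

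Whether the hairpin effect differed between the treatments was tested as the interaction, the effect with retinoic acid minus the untreated one. It was called for 10 of the 38 genes, 3 above 0 and 7 below, against 10.3% and 10.1% of all genes (20.4% in either direction). The median was −0.11, against 0.01. Sfn (−1.76 ± 0.12, limma adjusted p = 4.3e-07), Epha2 (−1.65 ± 0.18, adjusted p = 3.0e-05) and Dram1 (−1.44 ± 0.28, adjusted p = 0.0024) had the largest negative values. For Sfn the hairpin effect was smaller with retinoic acid, and for Epha2 it had the opposite sign. For Dram1, untreated sh4 was near background and untreated shCTR was also dim (mean −6.27). The size of its untreated change, of this difference and of its response in either hairpin is therefore uncertain. With normexp correction and with the authors' deposited table the difference was −1.25 and −1.32, the response in sh4 0.87 and 0.84 and the response in shCTR 2.13 and 2.17. Plk3 (−0.68 ± 0.15), Gadd45a (−0.57 ± 0.15), Polk (−0.51 ± 0.10) and Apaf1 (−0.41 ± 0.10) were also below 0. Gdf15 (0.99 ± 0.20, adjusted p = 0.0036), Sesn1 (0.61 ± 0.12, adjusted p = 0.0027) and Bax (0.32 ± 0.10, adjusted p = 0.031) were above 0.

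For the other 28 genes the difference was not called, which does not show that the effects were equal. With the mean of a gene's probes, Trp73 (−0.95, adjusted p = 0.0076), Trp53inp1 (−0.39, adjusted p = 6.2e-04) and Bcl2l1 (−0.56, adjusted p = 0.019) were called too, which gave 10 below 0. Of all genes, 2557 were then below 0, against 2535 in the main fit. In the main fit the difference was −0.32 ± 0.11 for Perp (adjusted p = 0.054), −0.21 ± 0.09 for Btg2 (adjusted p = 0.13) and −0.26 ± 0.16 for Plk2 (adjusted p = 0.34). Bax lost its call without any 1 of 10 arrays, all but untreated sh4 replicates 1 and 2, untreated shCTR replicate 1 and shCTR with retinoic acid replicates 1 and 2 (0.28 to 0.33, adjusted p = 0.051 to 0.078). Perp passed without untreated sh4 replicate 1 or 2 (−0.35 and −0.36), Fas without untreated sh4 replicate 1 (−0.63) and Ckap2 without sh4 with retinoic acid replicate 4 (0.36). With normexp correction, Gadd45a, Polk and Apaf1 were not called, which left 3 above 0 and 4 below. Of all genes tested, 1654 were then above 0 and 1360 below, against 2576 and 2535. The count above 0 was 2 without any 1 of the arrays that cost Bax its call, except sh4 with retinoic acid replicate 4, without which Ckap2 took its place and the count stayed at 3. With slide as a block it was 5, with Ckap2 and Rrm2b added, and the count below 0 was 8, with Perp added. Of all genes tested, 3561 were then above 0 and 3326 below.

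**Figure D5:**
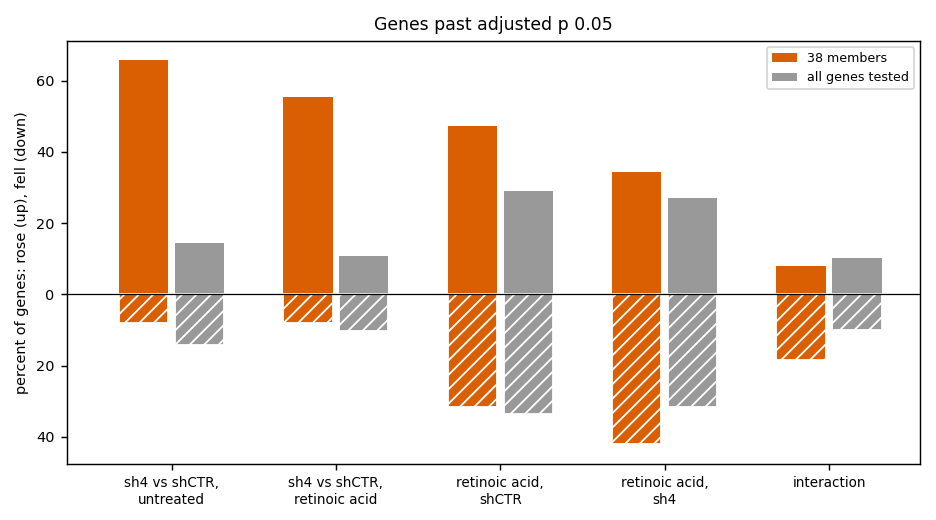
Percent of the 38 genes (orange) and of all 25087 genes tested (grey) that rose (above 0) or fell (below 0, hatched) at an adjusted p under 0.05 in each of the 5 comparisons. The share that rose with sh4 is above that of all genes in both treatments, by a wider margin than in the retinoic acid responses.

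Other genes of the p53 pathway, 39 of a list of 40 that could be tested, moved in both directions. With sh4 in untreated cells, 11 rose and 6 fell (median 0.07), against 14.3% and 14.2% of all genes. Trp63, which encodes the p53 relative p63 (−1.04 ± 0.12), and the acetyltransferase gene Crebbp (−0.98 ± 0.13) fell, and the p53-binding protein gene Trp53bp1 rose (0.91 ± 0.12). With retinoic acid, 8 rose and 2 fell (median 0.10), against 10.9% and 10.3%. Trp63 fell (−1.11 ± 0.13), and those that rose include the phosphatase gene Ptprv (0.74 ± 0.20) and Cdkn1a, which encodes the cyclin-dependent kinase inhibitor p21 (0.73 ± 0.14). Cdkn1a is the best known arrest gene downstream of p53. It stood at −0.27, −0.18, −0.17 and −0.01 in untreated shCTR, at −0.44, −0.47, −0.01 and −0.01 in untreated sh4, at 0.18, 0.17, 0.50 and 0.43 in shCTR with retinoic acid and at 1.13, 0.85 and 1.18 in sh4 with retinoic acid. The hairpin groups overlapped untreated (−0.07 ± 0.13, limma adjusted p = 0.8) and not with retinoic acid (adjusted p = 0.0019), and the interaction was 0.80 ± 0.19 (adjusted p = 0.0085).

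Retinoic acid itself raised 14 and lowered 16 of these 39 genes in shCTR (28.9% and 33.5% of all genes), and 12 and 16 in sh4 (27.1% and 31.6%). Trp63 (3.74 and 3.66), Crebbp (3.11 and 3.38) and the kinase gene Hipk2 (2.47 and 2.59) rose most in both. The interaction was above 0 for 5 and below 0 for 4 (10.3% and 10.1% of all genes), the largest being that of Lif, a cytokine that maintains ES cells (−1.04 ± 0.25), Cdkn1a and Trp53bp1 (−0.73 ± 0.18).

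Because Perp also belongs to desmosomes, 10 desmosome and cornified junction genes were counted. With sh4 in untreated cells 5 rose (14.3% of all genes) and none fell, led by Dsc2 (1.64 ± 0.09), Ppl (1.18 ± 0.08) and Dsp (0.85 ± 0.07). With retinoic acid 4 rose (10.9% of all genes), led by Ppl (1.26 ± 0.09) and Evpl (0.89 ± 0.12), and Pkp1 fell (−0.58 ± 0.19). The retinoic acid response raised 5 and lowered 1 in shCTR (28.9% and 33.5% of all genes), led by Dsc2 (4.04), Ppl (3.02) and Dsp (2.68). In sh4 it raised 4 and lowered 2 (27.1% and 31.6%), led by Ppl (3.0988), Dsc2 (2.89) and Dsp (1.87). The interaction was above 0 for 1 gene and below 0 for 2 (Dsc2 −1.14, Dsp −0.81 and Evpl 0.58).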

How the data were processed

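Total RNA of each sample was labelled with Cy3 and hybridised alone to a 1-colour Agilent array. Each deposited scanner file gives spot intensities. The background had been subtracted by Feature Extraction 10.7.3.1, without scaling between arrays, per the file headers. A deposited table of log2 values equals normexp correction (offset 50) with quantile normalization to a median absolute difference of 3.4e-10, and served as an alternative.

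Non-control spots (43020) gave 39312 usable probes. Log2 processed signals minus the 75th percentile of each array were analysed. A probe was tested if 3 or more arrays of some group showed it well above background, and the brightest probe stood for a gene. The 38 genes had 48 probes, and 9 genes had several. The 4 groups were fitted in 1 model with limma 3.58.1 in R 4.3.3, with two-sided moderated tests adjusted over 25087 genes. The fit was tested on simulated data. Genes named with the value of every array are Trp53, Mdm2, Phf19 and, in each comparison, the called genes with the 6 largest changes; Bbc3 and Cdkn1a were added after their values were seen. Of the other lists, called genes among the 3 largest changes are named. The genes and lists were chosen with earlier results of these data known.

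Same-numbered arrays correlated from −0.53 to 0.58 in their deviations from the group means, with 18 of 21 pairs over 0.1, but most of these pairs shared a slide. Same-numbered arrays on different slides correlated from −0.53 to 0.56, with 3 of 6 pairs over 0.1, so the numbers were not taken to pair samples. Arrays of one slide correlated from 0.12 to 0.61 in all 21 pairs. The main model held no slide term, and slide as a block was an alternative. Alternatives were background correction, scaling, probe filter, mean of probes, slide and replicate blocks, the groups compared alone, the variance prior and leaving out arrays.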

Additional observations from a re-analysis of the deposited data

Results flagged for a closer look

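For each group of 4 arrays and each of the 38 genes, 114 in all, the gap between the outermost array and its neighbour was divided by the range of the group. In 4 of them this exceeded Dixon's 95% critical value for groups of 4, and chance gives about 1 in 20. In untreated sh4, replicate 3 was the high array for Ddit4 (4.38, next 4.13, ratio 0.915) and replicate 2 for Plk2 (0.24, next 0.13, ratio 0.834). In untreated shCTR, replicate 1 was the low array for Epha2 (2.89, next 3.1005, ratio 0.874) and replicate 4 for Ercc5 (−1.01, next −0.86, ratio 0.909).

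The hairpin effect differed between the treatments, by the limma interaction, for 10 of the 38 genes. Over all genes tested, the interaction was called for 20.4% in either direction, so such a difference was not peculiar to the p53 targets. With retinoic acid minus untreated, the difference was 0.99 for Gdf15, 0.61 for Sesn1 and 0.32 for Bax. It was −0.41 for Apaf1, −0.51 for Polk, −0.57 for Gadd45a, −0.68 for Plk3, −1.44 for Dram1, −1.65 for Epha2 and −1.76 for Sfn.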

How the results depend on the processing

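Over 27 alternatives, 4890 of 5087 values of single genes kept their direction and their side of the threshold, 132 lost a call, 59 gained one and 6 turned sign. Those that turned were, for the retinoic acid response in shCTR, Eda2r with normexp correction (−0.027) and Aen with quantile normalization (0.10) and the authors' deposited table (0.11). In sh4 they were Aen with quantile normalization (0.28) and the authors' deposited table (0.34), and Trp53inp1 with the mean of its probes (−0.36). The 2 probes of Trp53inp1 stood at 0.06 and −0.77 in sh4, so their mean was below 0. For Eda2r and Aen the cause was not tested.

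The interaction was below 0 for 4 genes with normexp correction and with the authors' deposited table, against 7. Of all genes, 1360 and 1960 were then below 0, against 2535. With the replicate block, the interaction was above 0 for 5 genes, and with slide as a block for 5, against 3. Of all genes, 3058 and 3561 were then above 0, against 2576. The replicate block called 29, 25, 32, 30 and 12 genes in the hairpin effect untreated, the hairpin effect with retinoic acid, the response in shCTR, the response in sh4 and the interaction, against 28, 24, 30, 29 and 10. Over all genes the replicate block called 8132, 6276, 16731, 15616 and 5973, against 7144, 5307, 15670, 14713 and 5111. Among the 38 genes it added calls of Xpc, Ei24, Ckap2 and Rrm2b and ended none.

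Leaving out 1 array at a time gave 26 to 28 genes called untreated, 20 to 24 with retinoic acid, 28 to 31 in shCTR, 29 to 30 in sh4 and 9 to 12 in the interaction. Over all genes, 6329 to 7087, 3924 to 5383, 15093 to 15780, 13852 to 14766 and 4272 to 4959 were then called. Among the 38 genes, the numbers that rose were 23 to 25, 17 to 21, 17 to 18, 13 to 14 and 2 to 3. Those that fell were 3, 2 to 4, 11 to 13, 15 to 17 and 7 to 9. Without the 3 arrays rated for evaluation, chosen after seeing the data, 23, 20, 29, 30 and 8 were called. Of all genes, 5987, 3973, 15385, 13808 and 3904 were then called. The interaction has no fit with only the groups compared. Signal over background limits Dram1, Fas and Eda2r in untreated cells (mean level −6.27, −5.66 and −6.07 in shCTR). With normexp correction their untreated hairpin effects were −0.31, 0.21 and 0.02.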
